A study of Mus musculus with 4 samples.

Results

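The Hoxb cluster is the group of homeobox genes on mouse chromosome 11 that runs from Hoxb13 to Hoxb1. Its 10 genes, Hoxb1 to Hoxb9 and Hoxb13, were taken by gene symbol from a table of RNA sequencing counts for 31227 Ensembl gene IDs, and all 10 have a row there. The libraries were made from epithelial cells of the colon after chemical injury. The Smad4 KO group, knocked out for Smad4 in the epithelium, has 2 libraries (replicates 1 and 2), and the WT group also has 2 (replicates 1 and 3). Mice of both genotypes were 8 to 10 weeks old and received dextran sulfate sodium, or DSS, which damages the lining of the colon, at 3.5% in the drinking water for 5 days. They then drank plain water and were killed on day 7, while the label for time reads 5 days. What drives the knockout in the epithelium (a Cre line or promoter) was not given in the sources used here. Libraries of untreated mice were not analysed here, so each difference is one between genotypes under DSS. Nothing in the labels ties the replicates of a genotype to different animals, and p-values therefore weigh differences only against the scatter of these libraries, part or all of which may be technical.

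Hox genes encode transcription factors with a DNA-binding homeodomain and give cells their position along the body axis. In each cluster the order of the genes on the chromosome follows the order in which they are used: genes at the 3′ end, such as Hoxb1, act early and toward the head, and genes at the 5′ end, such as Hoxb13, act late and toward the tail. The adult gut keeps part of this code, and Hoxb13 is known as a marker of the distal colon. Smad4 joins other Smad proteins in the nucleus to pass on signals of the TGF-β and BMP families.

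The libraries held 61260099 and 67927291 counts in KO and 56018009 and 42577920 in WT. Levels are CPM, counts relative to a common library size after edgeR's TMM scaling, and 3 counts in a library correspond to 0.0450 to 0.0688 CPM. Smad4 itself had 51.5 and 41.1 CPM in KO libraries and 152 and 180 CPM in WT libraries, 3.59-fold lower in KO (edgeR quasi-likelihood adjusted p = 0.00163). The 10 epithelial markers, among them Epcam and Krt8, summed to 17697 to 18271 CPM in KO and 17309 to 17643 CPM in WT. Of these 10 markers 4 rose in KO (Krt20, Krt18, Epcam and Cldn7, with Krt20 1.65-fold higher and Epcam 1.23-fold), 1 fell (Krt19) and 5 did not pass. Libraries of the same genotype correlated at r = 0.993 in KO and 0.991 in WT over log2 CPM, against 0.972 to 0.974 between genotypes, a description across genes.

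The Hoxb cluster differed between the genotypes in opposite directions along its length. In KO epithelium Hoxb13, the gene at the 5′ end, was lower, Hoxb9 did not pass the test, and the 6 genes Hoxb8 to Hoxb3 were higher. Hoxb2 had few reads and did not pass, and Hoxb1 had none. Of the 10 genes, 9 had enough counts to be tested. A difference was called at an adjusted p under 0.05 by edgeR's quasi-likelihood test, which called 15.2% of all 15838 genes tested, 8.83% as risen in KO and 6.4% as fallen. Without either KO library these shares rest on fewer calls, 547 to 553 risen and 425 to 428 fallen genes against 1398 and 1014. By this rule 6 Hoxb genes rose and 1 fell. The median log2 fold change over all tested genes was 0.0075. In bulk samples such as these, fewer cells of a type and less RNA per cell cannot be told apart.

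**Figure D1:**
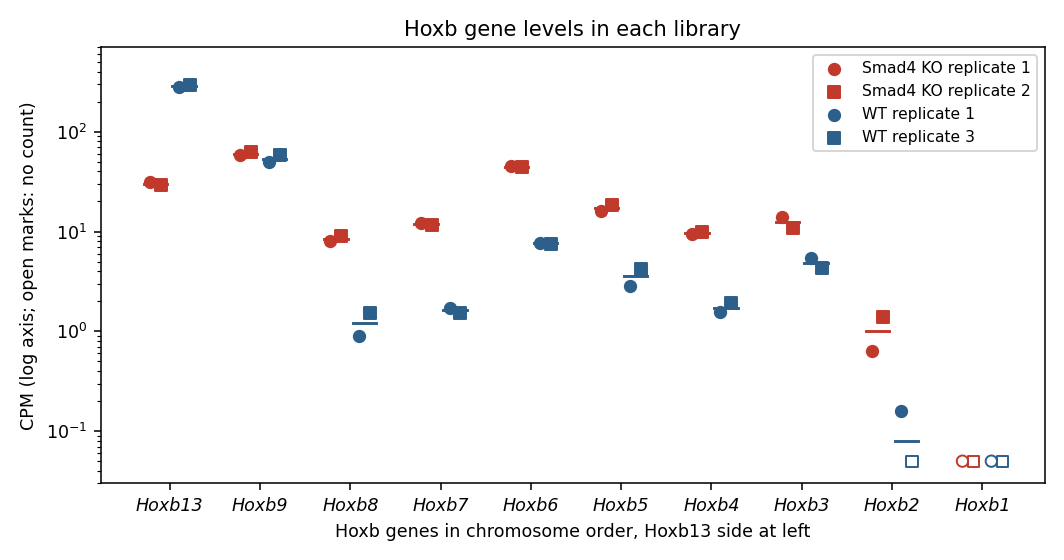
Level of each Hoxb gene in each library (CPM, log axis), with the genes in chromosome order and a bar at the mean of each genotype. KO libraries (left of each pair of columns) lie at 29.0 and 31.0 CPM for Hoxb13, under both WT libraries at 281 and 297 CPM, while for Hoxb8 to Hoxb3 both KO libraries lie above both WT libraries; open marks at the foot stand for libraries with no count.

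Hoxb13 restrains growth at the tail end of the embryonic axis and stays on in the adult hindgut and prostate. It lies at chr11:96194316-96197447 on the forward strand (GRCm38, GENCODE M21), as do all members. KO libraries held 1863 and 1934 counts of it, or 31.0 and 29.0 CPM, and WT libraries held 15919 and 12945 counts, or 281 and 297 CPM. The replicates of a genotype lay close together and the genotypes were far apart. Hoxb13 averaged 30.0 ± 1.42 CPM in KO and 289 ± 11.5 CPM in WT (SD, n = 2 libraries each). It fell 9.63-fold in KO, with a log2 change of -3.27 (SE of 0.08, edgeR adjusted p = 7.1e-05), and ranked 14 by p among the 15838 tested genes. By mean CPM it stood at rank 6176 of all genes in KO and at rank 546 in WT.

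Hoxb9, which acts with its paralogues in patterning the rib-bearing part of the skeleton, is the next member (chr11:96271457-96276595). It had 58.6 and 62.2 CPM in KO libraries and 49.6 and 57.8 CPM in WT libraries. The KO libraries were above both WT libraries. However, the lower KO library lay nearer to the higher WT library than the WT libraries lay to each other. The log2 fold change was 0.17 (SE 0.10, edgeR adjusted p = 0.339), which did not pass. Hoxb9 thus stands on the chromosome between the gene that fell and the genes that rose.

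The next 3 genes, Hoxb8, Hoxb7 and Hoxb6, belong to the middle of the cluster and pattern the trunk. Hoxb8, which is also known for a role in blood cells and in grooming behaviour of mice, had 8.00 and 8.93 CPM in KO libraries, against 0.899 and 1.51 CPM in WT libraries. Hoxb7, whose promoter is widely used to mark the ureteric bud of the kidney, had 12.1 and 11.6 CPM in KO libraries and 1.73 and 1.51 CPM in WT libraries. Hoxb6, a gene of the lateral mesoderm, had 45.2 and 44.1 CPM in KO libraries and 7.76 and 7.52 CPM in WT libraries. For each of the 3 genes both KO libraries were above both WT libraries, as they were for Hoxb9, which did not pass. The share of all genes with such a separation is not given here. The WT libraries of Hoxb8 were the only ones of these 3 genes that differed much between replicates. Hoxb8 rose 7.06-fold (log2 change 2.82 with an SE of 0.30, edgeR adjusted p = 0.00446). Hoxb7 rose 7.28-fold (log2 change 2.86 with an SE of 0.18, edgeR adjusted p = 0.000813). Hoxb6 rose 5.84-fold (log2 change 2.55 with an SE of 0.10, edgeR adjusted p = 0.000289), with the smallest SE of the genes that rose.

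The following 3 genes lie toward the 3′ end. Hoxb5, which acts in the neural crest cells that build the enteric nervous system, had 16.0 and 18.6 CPM in KO libraries and 2.86 and 4.24 CPM in WT libraries. Hoxb4, known for expanding blood stem cells when supplied in excess, had 9.40 and 9.89 CPM in KO libraries and 1.55 and 1.90 CPM in WT libraries. Hoxb3, which acts in the hindbrain and the pharyngeal organs, had 13.9 and 10.9 CPM in KO libraries and 5.43 and 4.27 CPM in WT libraries. The genotypes did not overlap for any of the 3, and Hoxb3 came nearest to doing so. The share of all genes without overlap is not given here, so this separation alone is not read as a difference. Hoxb5 rose 4.89-fold (log2 change 2.29 with an SE of 0.23, edgeR adjusted p = 0.00361) and Hoxb4 rose 5.59-fold (log2 change 2.48 with an SE of 0.20, edgeR adjusted p = 0.00185). Hoxb3 rose 2.55-fold (log2 change 1.35 with an SE of 0.21, edgeR adjusted p = 0.0135), and without KO replicate 1 it did not pass (1.17, edgeR adjusted p = 0.0775). Exons of Hoxb3 share 2250 of their 4251 bases with the antisense gene Hoxb3os, and exons of Hoxb5 share 100 of 2786 bases with Hoxb5os. Use of strand in the counting was not given in the sources used here, and reads of these genes and their antisense partners cannot be told apart.

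Promoter windows of RefSeq (GRCm38.p6), reaching from 250 bases before to 50 bases after the start site, matched 3 of the 10 members, Hoxb8, Hoxb4 and Hoxb1. The windows of the 2 genes that rose are shown so that the letters known to be bound by Smad proteins, Cdx factors and nuclear receptors such as those for retinoic acid can be read beside the values. Capitals mark matches to CAGAC (letters bound by Smad proteins), TTTATNG (Cdx) or AGGTCA (nuclear receptors), each searched on both strands. The Hoxb8 window is chr11:96281655-96281954 and the Hoxb4 window is chr11:96318017-96318316, both on the forward strand.
Hoxb8: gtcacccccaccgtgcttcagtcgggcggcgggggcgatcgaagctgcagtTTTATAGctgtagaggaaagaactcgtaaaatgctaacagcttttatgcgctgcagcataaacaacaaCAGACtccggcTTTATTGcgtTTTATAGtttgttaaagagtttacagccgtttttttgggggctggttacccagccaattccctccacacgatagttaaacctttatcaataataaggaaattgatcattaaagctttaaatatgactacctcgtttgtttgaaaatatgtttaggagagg
Hoxb4: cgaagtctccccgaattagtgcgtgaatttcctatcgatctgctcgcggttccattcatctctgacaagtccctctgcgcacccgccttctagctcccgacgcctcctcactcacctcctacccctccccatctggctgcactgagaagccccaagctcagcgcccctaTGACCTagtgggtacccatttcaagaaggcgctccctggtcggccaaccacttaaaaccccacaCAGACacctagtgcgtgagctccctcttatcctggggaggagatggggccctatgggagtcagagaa
The Hoxb8 window held 3 matches to TTTATNG and 1 to CAGAC, and 2 of the 3 overlap the TATA-box letters TATAAA read on the other strand. The Hoxb4 window held 1 match to CAGAC and 1 to AGGTCA, this motif read on the reverse strand as TGACCT. The Hoxb1 window, that of the gene with no count, held none of these nor GGAATG (Tead) nor TAATTA (a homeodomain core), which were also absent from the other windows. Of all 32851 windows of this length in the table, 49.6% held CAGAC, 10.9% TTTATNG, 16.3% AGGTCA, 14.7% GGAATG, 5.29% TAATTA and 13.6% TATAAA. These matches describe letters in the windows and are not evidence of binding.

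The 2 members at the 3′ end of the cluster were the lowest. Hoxb1 was under the limit of detection in all libraries, and Hoxb2 was near or under it in the WT libraries only. Hoxb2, a hindbrain gene, had 38 and 93 counts in KO libraries (0.632 and 1.39 CPM) and 9 and 0 counts in WT libraries (0.159 and 0 CPM). It passed the filter on low counts only through the KO libraries, and 953 of its 3488 exon bases are shared with Hoxb3os. Its log2 fold change was 3.56 (SE 1.24, edgeR adjusted p = 0.127), which did not pass. It did pass with the DESeq2 Wald test (adjusted p = 0.0330), without WT replicate 1 (edgeR adjusted p = 0.0405) and with the counts of overlapping genes added (edgeR adjusted p = 0.0312). Hoxb1, which gives the part of the hindbrain around the facial nerve its identity, had 0 counts in all 4 libraries. A count of 0 allows up to 0.0499 and 0.0450 CPM in the KO libraries and up to 0.0529 and 0.0688 CPM in the WT libraries, for counting error only.

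Levels of different genes were compared per kilobase of exon. In KO the order from high to low was Hoxb9, Hoxb6, Hoxb13, Hoxb7, Hoxb5, Hoxb4, Hoxb8, Hoxb3 and Hoxb2. In WT it was Hoxb13, Hoxb9, Hoxb6, Hoxb5, Hoxb3, Hoxb7, Hoxb4, Hoxb8 and Hoxb2. Hoxb9 was at 23.5 ± 0.989 CPM per kb in KO and 20.9 ± 2.28 in WT (SD, n = 2), and Hoxb6 was at 22.7 ± 0.419 in KO and 3.89 ± 0.0845 in WT. Hoxb13 was at 13.6 ± 0.642 CPM per kb in KO and 131 ± 5.20 in WT. In WT libraries Hoxb13 was thus the member with the highest level by a wide margin, and in KO libraries both Hoxb9 and Hoxb6 were above it. Neighbours whose libraries overlapped, and whose order is therefore undecided, were Hoxb9 and Hoxb6 as well as Hoxb8 and Hoxb3 in KO. In WT they were Hoxb5 and Hoxb3, Hoxb3 and Hoxb7, and Hoxb2 and Hoxb1. With the longest transcript as the length, 3 genes changed place in KO and 2 in WT, none of them among the first 3.

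**Figure D2:**
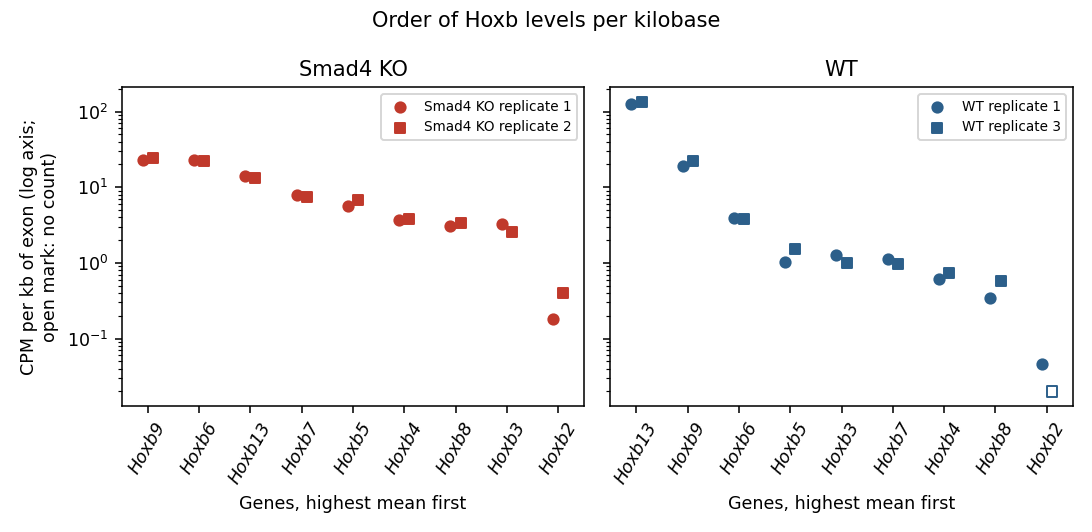
Level of each detected Hoxb gene per kilobase of exon (CPM per kb, log axis) in KO libraries (left) and WT libraries (right), ordered within each genotype by the mean; an open mark stands for a library with no count. Hoxb9 and Hoxb6 lie together at the top in KO at 22.4 to 24.2 CPM per kb, while in WT Hoxb13 lies alone at 127 and 135 CPM per kb.

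The genotypes differed in which genes made up the Hoxb counts. Hoxb13 took 15.9% (95% Wilson interval 15.3 to 16.6) and 14.7% (14.1 to 15.4) of all Hoxb counts in the KO libraries, against 80.1% (79.5 to 80.6) and 79.0% (78.4 to 79.6) in the WT libraries. These intervals cover counting error only, and the libraries of a genotype lay within about their width of each other. Hoxb2 to Hoxb8 together took 53.8 ± 0.274% in KO and 5.70 ± 0.165% in WT (SD, n = 2). Hoxb9 took 30.9 ± 1.10% in KO and 14.8 ± 0.891% in WT, although its own level did not pass the test, because a share depends on the other genes in the sum. Summed over the cluster, the Hoxb genes had 195 and 197 CPM in KO libraries and 351 and 376 CPM in WT libraries, a KO to WT ratio of 0.539. The genes Hoxb2 to Hoxb8 alone summed to 105 CPM in each KO library and to 20.7 ± 0.411 CPM in the WT libraries (SD, n = 2), a ratio of 5.09. Both sums kept the genotypes apart, in opposite directions. With 2 libraries against 2, the exact two-sided permutation test cannot give a p below 0.333, which is what each sum gave.

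**Figure D3:**
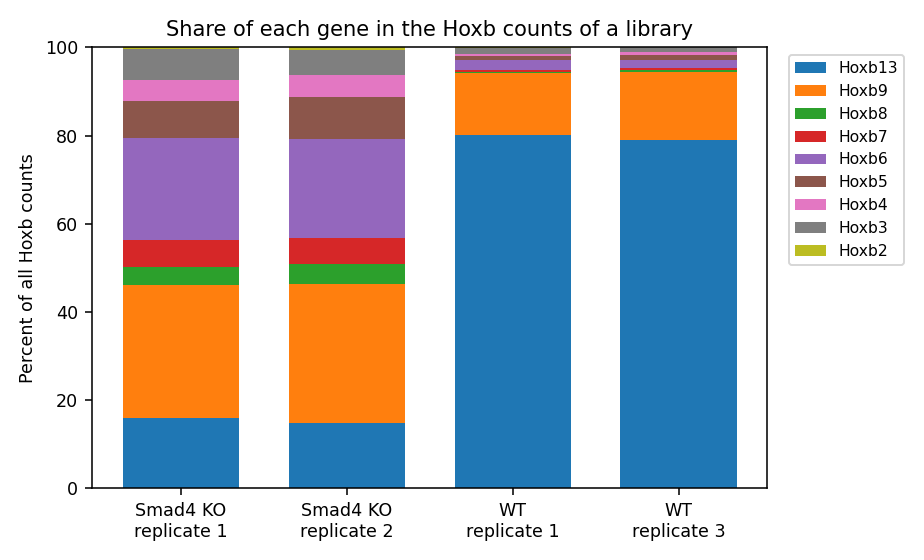
Share of each gene in all Hoxb counts of a library (percent, stacked to 100), KO libraries at left and WT libraries at right. Hoxb13 takes 14.7 to 15.9% of the bar in KO and 79.0 to 80.1% in WT, and Hoxb6 takes 22.8% on average in KO and 2.11% in WT.

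Ratios of counts between members of the same library do not depend on how libraries are scaled. The ratio of Hoxb13 to Hoxb9 counts was 0.529 and 0.466 in KO libraries and 5.66 and 5.13 in WT libraries, a difference of -3.44 in the mean log2 ratio. The ratio of Hoxb13 to Hoxb6 counts was 0.685 and 0.658 in KO libraries and 36.2 and 39.5 in WT libraries, a difference of -5.82. The ratio of Hoxb6 to Hoxb9 counts was 0.772 and 0.709 in KO libraries and 0.157 and 0.130 in WT libraries, a difference of 2.37. Over all 13 ratios computed, 7 of Hoxb13 to another member and 6 of a member to Hoxb9, the genotypes did not overlap. The ratios share Hoxb13 or Hoxb9 and follow from the levels given above, so they are not 13 separate results. The share of all gene pairs that do not overlap is not given here. Each had an exact permutation p of 0.333, the smallest this design allows, also after adjustment over the 13.

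The region around the cluster was examined gene by gene. Hoxb13 is set apart from the rest of the cluster by 74.0 kb between its end and the start of Hoxb9, while Hoxb9 to Hoxb1 fill the next 96.8 kb. In that gap lies the long noncoding RNA gene Gm53, with 68.8 and 74.5 CPM in KO libraries and 98.4 and 113 CPM in WT libraries. Gm53 fell in KO (log2 change -0.56 with an SE of 0.10, edgeR adjusted p = 0.0186), by less than Hoxb13, and lost its call without KO replicate 1 (adjusted p = 0.124) and without KO replicate 2 (adjusted p = 0.0801). The antisense genes Hoxb5os and Hoxb3os did not pass. Hoxb5os had 1.45 and 1.83 CPM in KO libraries and 0.476 and 0.734 CPM in WT libraries. Its log2 fold change was 1.44 (edgeR adjusted p = 0.0913). Hoxb3os had a log2 fold change of 2.32 (edgeR adjusted p = 0.357). That value rested on 15 and 13 counts in KO libraries and 0 and 4 in WT libraries. Ttll6, which encodes an enzyme that adds glutamate chains to tubulin, is the nearest protein-coding gene on the outer side of Hoxb13. It had 11.0 and 14.0 CPM in KO libraries and 39.9 and 36.6 CPM in WT libraries, and fell 3.06-fold (log2 change -1.62 with an SE of 0.15, edgeR adjusted p = 0.00269). Of 10 flanking genes with a row, 8 were tested, and of these Ttll6 was the only one called by that test, while DESeq2 also called Cbx1 as risen (0.59, adjusted p = 0.0143). Cbx1 passed in edgeR with no low-count filter (0.61, adjusted p = 0.0493) and without WT replicate 3 (0.85, adjusted p = 0.0281), and Igf2bp1 passed without WT replicate 1 (2.14, adjusted p = 0.0281). Igf2bp1 had a log2 fold change of 1.35 (adjusted p = 0.131), Snf8 of -0.0097 (0.969), Ube2z of 0.14 (0.349) and Atp5g1 of -0.16 (0.265) on the Hoxb13 side. Beyond Hoxb1, Skap1 had 2.89 (0.219), Snx11 0.27 (0.204) and Cbx1 0.60 (0.0874). The value of Skap1 rested on 53 and 26 counts in KO libraries and 9 and 0 in WT libraries. Skap1 passed the filter on low counts only through the KO libraries. The median over these 8 genes was 0.21, beside 0.0075 over all tested genes. The gene model Gm11535 between Ttll6 and Hoxb13, chosen after its values were seen, had 0.150 and 0 CPM in KO libraries and 2.57 and 1.54 CPM in WT libraries and did not pass (edgeR adjusted p = 0.0508).

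**Figure D4:**
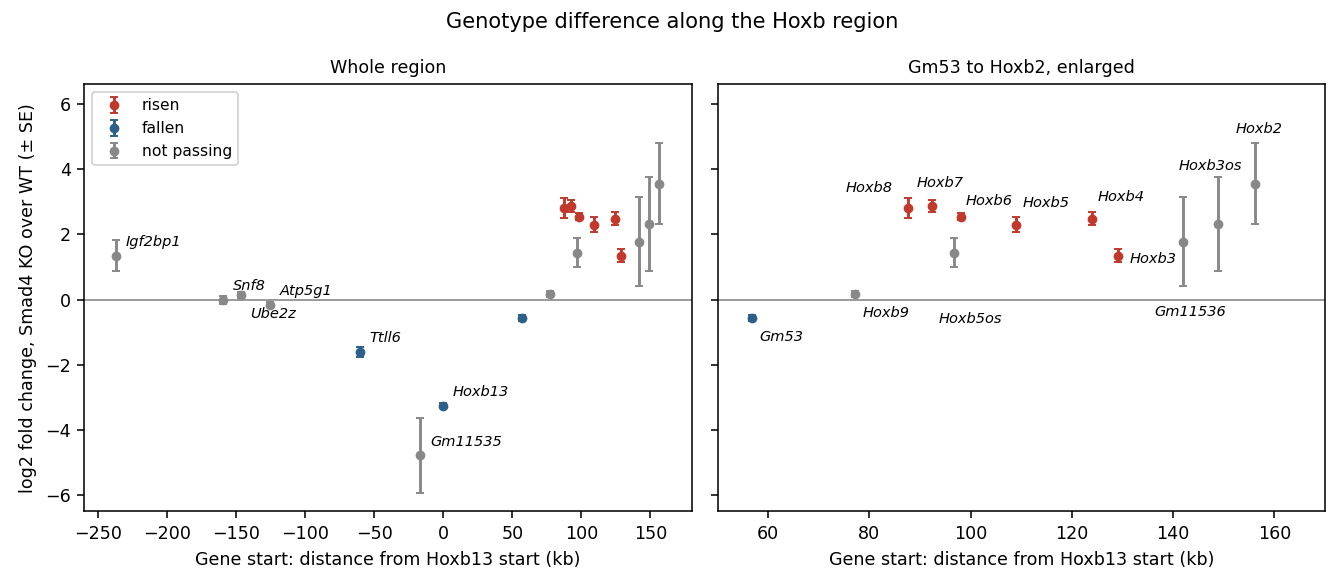
Log2 fold change of KO over WT (± SE) for each tested gene from Igf2bp1 to Hoxb2, against the distance of the gene's lowest coordinate from that of Hoxb13; left the whole region, right the stretch from Gm53 to Hoxb2. Ttll6 at -1.62, Hoxb13 at -3.27 and Gm53 at -0.56 lie under 0, Hoxb9 at 0.17 lies near it, and Hoxb8 to Hoxb3 lie between 1.35 and 2.86; grey genes did not pass.

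The cluster also holds genes for microRNAs, small RNAs that pair with messenger RNAs through their seed. They are shown because both lie among the Hoxb genes and the miR-196 family is known to direct cleavage of Hoxb8 mRNA in mouse embryos. Their own levels were not analysed here. The mature sequences are those of RefSeq (GRCm38.p6), with the seed, bases 2 to 8, in capitals. That of miR-196a lies at chr11:96265187-96265208, between Gm53 and Hoxb9, and that of miR-10a at chr11:96317186-96317208, just before Hoxb4, both on the forward strand. The Hoxb8 site is the stretch of the 3′ UTR most complementary to miR-196a, at chr11:96284888-96284909 (GRCm38, forward strand), with the bases opposite the seed in capitals.
mmu-miR-196a-5p: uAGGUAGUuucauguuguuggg
Hoxb8 site: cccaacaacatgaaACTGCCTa
mmu-miR-10a-5p: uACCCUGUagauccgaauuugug
The Hoxb8 site is the same as the full complement of miR-196a at 21 of 22 bases. The 1 difference from the full complement is A18G, counted from 1 at the 5′ end of the site, with the base of the full complement given before the position. The complement of the miR-196a seed occurred once each in the annotated 3′ UTRs of Hoxb1, Hoxb6 and Hoxb7, and that of the miR-10a seed occurred once in that of Hoxb3. Of these genes Hoxb7, Hoxb6 and Hoxb3 rose and Hoxb1 had no count. The other members held no exact match to either seed: Hoxb8, Hoxb5 and Hoxb4, which also rose, and Hoxb2, Hoxb9 and Hoxb13. In Hoxb8 the difference A18G lies in the stretch opposite the seed. It sets a G opposite a U, bases that can still pair as a wobble.

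The other Hox clusters carry paralogues of the Hoxb genes, numbered alike across clusters. At the 5′ end, Hoxd13 had 3.16 and 4.38 CPM in KO libraries and 104 and 116 CPM in WT libraries and fell (log2 change -4.86 with an SE of 0.19, edgeR adjusted p = 0.000258). Hoxa13 fell with a log2 fold change of -1.07 (SE 0.09, adjusted p = 0.00181), so that all 3 paralogues of group 13 with counts were lower in KO. In group 9, Hoxd9 had a log2 fold change of 0.08 (adjusted p = 0.899) and Hoxa9 fell by 0.56 on the log2 scale (adjusted p = 0.0164; 0.104 without KO replicate 1 and 0.115 without KO replicate 2), beside 0.17 for Hoxb9. In group 8, Hoxd8 rose with 9.03 and 8.53 CPM in KO libraries and 1.01 and 0.849 CPM in WT libraries (3.24, adjusted p = 0.000986), beside 2.82 for Hoxb8. In group 4, Hoxd4 rose (3.21, adjusted p = 0.000931) beside 2.48 for Hoxb4, while Hoxa4 had -0.28 (adjusted p = 0.691). Hoxa6 fell (-0.68, adjusted p = 0.0445, but 0.110 to 0.218 without WT replicate 3 or either KO replicate) where Hoxb6 rose, and Hoxa7 had -0.21 (adjusted p = 0.390) where Hoxb7 rose. Of 11 Hoxa genes tested, 0 rose and 6 fell (2 without either KO replicate), with a median of -0.56 and the smallest p at Hoxa11 (-1.39, adjusted p = 0.00113). Of 9 Hoxd genes tested, 3 rose and 4 fell, and the median was the value of Hoxd9. Of the 4 that fell, Hoxd10 (4 and 20 counts in KO), Hoxd11 (4 and 38) and Hoxd12 (0 and 0) passed the filter on low counts only through the WT libraries, where they are high. Of the 9 Hoxc genes 6 had no count in any library and 1 was tested, Hoxc6 (0.03, adjusted p = 0.995). Whether a Hoxb gene differed from its paralogue in its response was not tested.

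**Figure D5:**
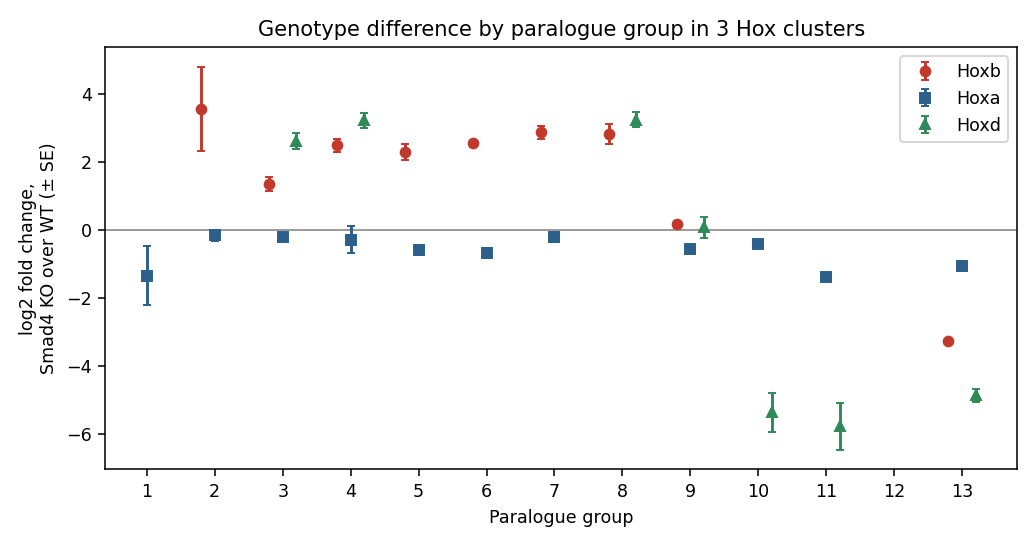
Log2 fold change of KO over WT (± SE) of the tested Hoxb, Hoxa and Hoxd genes by paralogue group; Hoxd1 and Hoxd12 are left out because 1 genotype had no count of them. In group 13 the points lie at -3.27 (Hoxb), -1.07 (Hoxa) and -4.86 (Hoxd), and in groups 3 to 8 the Hoxb points lie at 1.35 to 2.86 while the Hoxa points lie under 0.

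Genes known to act on Hox genes were read from the same fit. Of the Cdx and ParaHox genes, factors that set Hox levels in the embryo, 3 were tested. Cdx2 had 249 and 269 CPM in KO libraries and 170 and 176 CPM in WT libraries and rose 1.50-fold (edgeR adjusted p = 0.00558), a call that was lost without KO replicate 2 (adjusted p = 0.0530). Cdx1 had a log2 fold change of -0.26 (edgeR adjusted p = 0.0674), and it passed as fallen with library totals (0.0483), with no low-count filter (0.0428), with the DESeq2 Wald test (0.0177) and without WT replicate 1 (0.0143). Pdx1 had a log2 fold change of 0.07 (adjusted p = 0.943). Retinoic acid is known to switch on 3′ Hox genes, and of 9 genes of its synthesis, binding and breakdown tested, 2 rose and 0 fell. Aldh1a3, an enzyme that makes retinoic acid, had 73.6 and 68.8 CPM in KO libraries and 9.79 and 9.77 CPM in WT libraries, and rose 7.28-fold (edgeR adjusted p = 0.000197). Its relative Aldh1a1 had 77.2 and 76.1 CPM in KO libraries and 41.3 and 37.9 CPM in WT libraries, and rose 1.94-fold (edgeR adjusted p = 0.00213). The receptor gene Rarg had a log2 fold change of 0.49 (adjusted p = 0.144), and the median over the 9 genes was 0.07.

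Of 11 Hox cofactors of the TALE class, 1 rose, the repressor Tgif1 (log2 fold change 0.38, edgeR adjusted p = 0.0485, and 0.0772 to 0.278 with any 1 library left out), and Pbx4 had 1.36 (adjusted p = 0.483). Polycomb complexes keep Hox genes silent, and of 23 of their genes 2 rose and 0 fell, with a median of 0.0042. Cbx6 had a log2 fold change of 0.93 (adjusted p = 0.0109) and Bmi1 of 0.58 (adjusted p = 0.0415), calls that neither kept without KO replicate 1 or without KO replicate 2 (adjusted p of 0.0709 to 0.181) and that Bmi1 also lost without WT replicate 1 (adjusted p = 0.0705), and Phf1 had 0.27 (adjusted p = 0.126). Of 12 genes for the opposing Trithorax proteins and for demethylases of the Polycomb mark, 0 rose and 3 fell, with a median of -0.23. These were the histone methyltransferase genes Kmt2a (-0.32, adjusted p = 0.0276), Ash1l (-0.29, adjusted p = 0.0444) and Kmt2c (-0.32, adjusted p = 0.0474), and none of the 3 passed without WT replicate 3 or without either KO replicate (adjusted p of 0.0548 to 0.288). Of 8 genes for Ctcf and cohesin, which divide Hox clusters into domains, edgeR called 0 at an adjusted p under 0.05, as did DESeq2 and limma-voom, and 1 had an unadjusted p under 0.05. The smallest p there was that of Smc3 (-0.21, adjusted p = 0.109), and the median was -0.02. The counts for these lists can be read against 8.83% risen and 6.4% fallen over all genes.

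Hox genes are also expressed outside the epithelium, so markers of other cells were measured in the same libraries. Fibroblast markers summed to 67.3 to 72.2 CPM in KO and 41.1 to 41.6 CPM in WT. Of 9 tested 2 rose, Fbln1 and Dcn, and Fbln1, the most abundant, had 28.1 and 34.7 CPM in KO libraries and 9.73 and 10.3 CPM in WT libraries. Smooth muscle markers summed to 3.03 to 4.99 CPM in KO and 2.61 to 3.91 CPM in WT, with 0 of 5 called by edgeR, DESeq2 or limma-voom, 1 of 5 at an unadjusted p under 0.05, and Tagln the most abundant. Without Fbln1 the fibroblast markers summed to 37.5 to 39.3 CPM in KO and 31.3 CPM in each WT library. Of the 8 tested besides Fbln1, 7 had a log2 fold change above 0 and 1 below. An unadjusted edgeR p under 0.05 was reached by 4 of the 9, and their median log2 fold change was 0.79. Fbln1 and Dcn thus moved in the direction of Hoxb3 to Hoxb8. Most other fibroblast markers had values on that side of 0 but were not called. These values ranged from 0.0078 (Col3a1) to 2.24 (Pdgfra), while Col6a1 had -0.17. The part of fibroblast markers in the rise of Hoxb3 to Hoxb8 was not tested. Enteric neuron and glia markers summed to 20.2 to 21.6 CPM in KO and 7.98 to 8.38 CPM in WT. Of 5 tested, Ret alone was called, with 18.8 and 20.1 CPM in KO libraries and 5.34 and 5.62 CPM in WT libraries, while Sox10 had no count in any library. Without Ret the sum was 1.43 to 1.48 CPM in KO and 2.36 to 3.03 CPM in WT, lower in KO. Endothelial markers summed to 3.21 to 3.38 CPM in KO and 1.74 to 2.03 CPM in WT, with 0 of 4 called by any of these tools, 0 at an unadjusted p under 0.05, and Pecam1 the most abundant.

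Immune markers were read in the same way. Neutrophil markers summed to 427 to 439 CPM in KO and 103 to 130 CPM in WT, and 5 of 6 rose, led in level by Ly6g. Without Ly6g the sum was 108 to 110 CPM in KO and 9.75 to 13.6 CPM in WT. T cell markers summed to 14.1 to 14.3 CPM in KO and 6.51 to 7.62 CPM in WT, with Lck the most abundant. Of 8 tested 1 rose, Cd4, which had 24 and 28 counts in KO libraries and none in either WT library. Cd4 thus passed the filter on low counts only through the KO libraries, where it is high. Macrophage markers summed to 168 to 174 CPM in KO and 172 to 192 CPM in WT, a sum made up mostly of Cd14. Without Cd14 it was 34.9 to 37.2 CPM in KO and 10.6 to 12.8 CPM in WT. Of 8 tested 2 rose, Lyz2 and Csf1r, and DESeq2 called 4. B and plasma cell markers summed to 1.18 to 1.30 CPM in KO and 0.476 to 1.19 CPM in WT, with 0 of 2 called by any of the 3 tools, 0 at an unadjusted p under 0.05, Ms4a1 the most abundant and Mzb1 at 0. Of the nuclear RNAs read for RNA quality, Malat1 had 311 and 269 CPM in KO libraries and 598 and 794 CPM in WT libraries and fell (edgeR adjusted p = 0.00616), and Neat1 had a log2 fold change of 0.28 (adjusted p = 0.123, and 0.00636 without WT replicate 1). The part of these in the Hoxb differences was not tested.

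The genes most like 2 of the members over the 4 libraries were found by distance between log2 CPM values centred on each gene's mean, among 10254 genes of at least 5 CPM. Among the nearest to Hoxb13 were Hmcn1, an extracellular matrix gene (distance 0.115), and Tgm3, a transglutaminase (0.194). Hmcn1 had 4.49 and 3.85 CPM in KO libraries and 36.9 and 39.9 CPM in WT libraries, the same kind of gap as Hoxb13 at a lower level. The Hox gene nearest to Hoxb13 was Hoxd13, at place 102 (distance 1.65). Nearest to Hoxb6 were Plet1, a surface protein gene of epithelial progenitors (0.0856), Pnliprp2, a lipase (0.0980), and Acod1, the enzyme that makes itaconate (0.162). Plet1 had 792 and 797 CPM in KO libraries and 130 and 133 CPM in WT libraries. The Hox gene nearest to Hoxb6 was Hoxb4, at place 10 (distance 0.260). With 4 libraries in 2 groups, such likeness rests on the size of the genotype difference and the spread of the replicates.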

How the data were processed

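The authors deposited whole-number counts per Ensembl gene ID for the 4 libraries, not normalized. Per the labels' protocols, 1.5 µg of total RNA went into each library and cDNA was primed with random hexamers. The submitters' processing notes name HISAT2 2.1.0, StringTie 1.3.3b, SAMtools 1.9 and FastQC 0.19.7 on GRCm38 (mm10). The counting tool, its use of strand and its handling of multi-mapping reads were not given in the sources used here, and counts of overlapping or similar genes are uncertain. All columns were matched by library title, with 0 left over. GENCODE M21 named 31207 of 31227 IDs, and the others held at most 0.00197% of a library.

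Of 19618 genes with any count, filterByExpr (minimum count 10) kept 15838. The whole table was fitted with edgeR 4.0.16 (R 4.3.3, TMM, glmQLFit and glmQLFTest, genotype only), p-values were adjusted by Benjamini and Hochberg over all tested genes, and the threshold was 0.05. Changes are KO over WT, and the SE is the log2 fold change divided by the square root of F. The biological coefficient of variation was 0.196. The fit was run on simulated data with 200 changed genes, drawn with the dispersions of the fit itself. Its outcome is not reported here, and such data cannot check the calls in the real libraries. Limits from 3 counts and Wilson intervals cover counting error alone, because copies made by PCR are no independent molecules. Levels per kilobase used the union of annotated exons. Permutation tests used scipy 1.17.1, and log2 CPM for likeness had a prior count of 2.

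The members and gene lists were chosen with earlier results of these data known. The text names all members, Smad4, every tested noncoding and flanking gene of the lists, the up to 3 genes of smallest p in each other list, paralogues set beside a member, the most abundant gene of each marker list of another cell type, and the 3 genes most like Hoxb13 and Hoxb6. Some genes that the rule took are not reported here. Alternatives were DESeq2 size factors, upper-quartile scaling, library totals, no low-count filter, 1 CPM in 2 libraries, DESeq2 1.42.0, limma-voom 3.58.1, adding overlapping genes, and leaving out each library. Protein features were not computed, since no protein sequences were used here.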

Additional observations from a re-analysis of the deposited data

How the results depend on the processing

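Under 12 other settings the calls and directions of Hoxb13, Hoxb8, Hoxb7, Hoxb6, Hoxb5 and Hoxb4 held, with log2 fold changes of -3.32 to -3.22 for Hoxb13 and 2.49 to 2.57 for Hoxb6. Hoxb9 ranged from 0.050 to 0.29 and did not pass under any. The risen Hoxb genes numbered 5 to 7 and the fallen 1. Over all genes, DESeq2 called 1524 fallen, against 1014 by edgeR, and leaving out a library gave 547 to 1504 risen and 425 to 1069 fallen genes, the lowest values without a KO library. With Hoxb9 left out of the sum, Hoxb13 took 22.2% of Hoxb counts in KO and 93.3% in WT. Directions of some uncalled genes turned. Hoxc6 had -0.016 with library totals, -0.31 with limma-voom and -0.91 to 5.81 with a library left out. Leaving out a library gave -0.11 to 0.090 for Snf8, -0.54 to 0.014 for Hoxa4, -0.11 to 0.29 for Hoxd9, -0.061 to 2.17 for Pbx4 and -0.22 to 0.42 for Pdx1. The cause was not tested. A fit without a library takes its lone partner to vary like the other genotype. No paired analysis was possible because the genotypes share only the replicate number 1. Depth limits Hoxb2 and Hoxb1, and 2 libraries per genotype limit every p.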
